A study of Mus musculus with 18 samples.

Results

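The comparison described here set medullary thymic epithelial cells with high surface MHC class II (mTEChi) against those with low surface MHC class II (mTEClo) in wildtype (WT) C57BL/6 mice. Its 6 libraries, 3 of each fraction, are part of a bulk RNA-seq series of 18 libraries. The other libraries are cortical thymic epithelial cells (cTEC) of the same WT mice and the same 3 subsets of mice labelled as Kat7 knockout (KO). Each WT pool of mice, numbered 1 to 3, gave 1 mTEChi and 1 mTEClo library, so the fractions are paired by pool. The sources used here do not give age, sex, the number of mice in a pool or the cells in which Kat7 was lost. Of 27179 genes in the table, 19364 had enough counts to be tested. Levels are in CPM, counts scaled to a common library size after TMM adjustment, given as mean ± SD over the 3 libraries of a fraction. A log2 fold change is mTEChi minus mTEClo. A gene was called higher or lower where its adjusted p from edgeR's quasi-likelihood test, corrected over all genes tested, was below 0.05.

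The medulla of the thymus shows developing T cells the proteins of the rest of the body, so that self-reactive cells can be deleted or turned into regulatory T cells. Mature medullary cells express AIRE, a nuclear regulator that allows transcription of many genes otherwise restricted to single organs, and present their products on abundant MHC class II. The class II low fraction is mixed: it holds immature cells that produce CCL21, a chemokine that draws selected thymocytes into the medulla, and post-Aire cells that mimic epithelia of other organs, such as tuft cells. Sorting by class II therefore compares mixtures of cells. In bulk RNA, fewer cells of a type and less RNA per cell cannot be told apart.

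Library totals were 3554089 to 8445355 counts in mTEChi and 6565309 to 9815559 in mTEClo, with the shallowest library in mTEChi of pool 1. Libraries of 1 fraction correlated on the log scale at 0.975 to 0.983, across genes, which are not independent replicates. Mitochondrial transcripts took 1.32 to 1.67% of counts in mTEChi and 1.97 to 2.94% in mTEClo, and the ribosomal precursor Rn45s took 0.357 to 0.680% and 0.974 to 1.23%. Immediate early and heat shock genes, which respond to cell isolation, were lower in mTEChi in 18 of 19 members (median log2 fold change -1.36), with Fos at 596 ± 134 CPM in mTEChi and 3144 ± 620 CPM in mTEClo. These shares move with the fraction, and their part in the results below was not tested.

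The fractions differed in 59.3% of the genes tested. In mTEChi 6306 genes (32.6%) were higher and 5172 (26.7%) were lower, and the median log2 fold change of all genes was 0.08. Large differences leaned towards mTEChi, with 4778 genes higher by at least 2-fold (24.7%) and 2397 lower (12.4%), and with 3415 higher and 750 lower by at least 4-fold. Of the higher genes 2458 lay below 1 CPM in mTEClo, and 2115 of those were below 1 CPM in cTEC as well. The reverse was rarer, with 284 lower genes below 1 CPM in mTEChi. At an equal depth of 3554089 counts, 17651, 17603 and 17876 genes had at least 5 reads in the mTEChi libraries, against 15271, 15227 and 15515 in mTEClo. The mean difference of 2372 genes separated all libraries of the fractions, but an exact two-sided permutation test of 3 against 3 cannot go below its p of 0.1.

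The defining genes of the fractions followed the labels. Aire (chromosome 10, 78030022 to 78043610 on GRCm38.p6) was at 1096, 1225 and 1229 CPM in mTEChi and at 27.3, 26.2 and 59.3 CPM in mTEClo (log2 fold change 4.99, SE 0.38, adjusted p = 1.04e-09). Ccl21a (chromosome 4, 42772860 to 42773991), which encodes the CCL21 chemokine, was at 47.6, 56.0 and 41.6 CPM in mTEChi and at 1528, 1576 and 1535 CPM in mTEClo (log2 fold change -4.99, SE 0.36, adjusted p = 6.61e-10). The libraries of the fractions do not overlap in either gene, as in 37.7% of all genes on the higher side and 30.6% on the lower side, and each fraction kept a low level of the gene that marks the other. Ccl21a has near-identical copies, so its reads may be shared with them. Kat7, the gene named in the KO label, was at 54.2 ± 5.71 CPM in mTEChi and 46.4 ± 9.93 CPM in mTEClo and was not called (0.21, SE 0.22, adjusted p = 0.42).

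**Figure D1:**
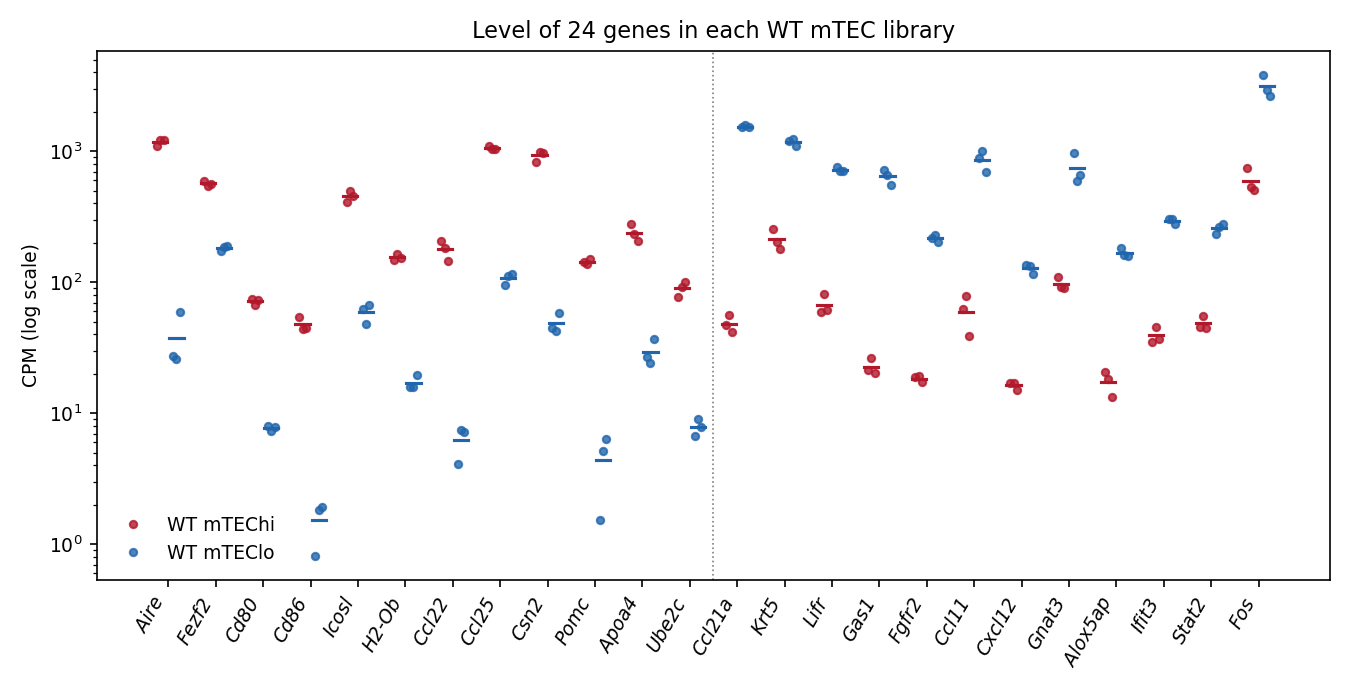
CPM (log axis) of 24 genes in each WT library, with red points for mTEChi, blue points for mTEClo and a line at each mean of 3 libraries. The 12 genes left of the dotted line lie higher in every mTEChi library and the 12 on the right lie lower in every one, with Aire at 1184 CPM against 37.6 CPM and Ccl21a at 48.4 CPM against 1546 CPM on average.

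Genes of antigen presentation on class II were higher in 14 of 18 tested members and lower in 3 (median 1.33). Surface class II set the sort, so the direction of its chains is a property of the gate and not independent evidence. H2-Aa, a chain of the I-A molecule, was at 7557 ± 328 CPM in mTEChi and 2205 ± 95.5 CPM in mTEClo (1.78, SE 0.12). The invariant chain gene Cd74 had the largest difference in CPM of any called gene, with 31249 ± 654 and 10888 ± 815 CPM. Genes of the modifiers of peptide loading were also higher. H2-Ob, a subunit of the inhibitor of peptide exchange DO, was at 149, 165 and 153 CPM in mTEChi and at 15.8, 15.9 and 19.6 CPM in mTEClo (3.19, SE 0.18, adjusted p = 2.39e-11), and its partner H2-Oa had a log2 fold change of 2.84 (SE 0.20). Ctsl, the protease that processes the invariant chain in cortical cells, went the other way, at 247 ± 48.0 and 1548 ± 218 CPM (-2.65, SE 0.18). Class I presentation was higher in 13 of 17 members and lower in 3, with a median of 0.48. The lower members were 1 without WT mTEChi replicate 3. Psme2, an activator subunit of the proteasome, was at 200 ± 11.8 and 85.9 ± 8.76 CPM, whereas the class I transactivator gene Nlrc5 was lower (69.3 ± 11.9 and 129 ± 16.8 CPM). Ubd, which encodes the ubiquitin-like protein FAT10, was at 4766 ± 113 and 590 ± 136 CPM (3.01, SE 0.22, adjusted p = 9.21e-10).

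Costimulatory and checkpoint ligands, which set the strength of the signal a T cell receives, were higher in 12 of 17 members and lower in 1 (median 1.28). The lower member ranged from 0 to 2 over the alternatives and was 0 with RLE scaling, DESeq2 and equal depth and without any 1 of 4 libraries (WT mTEClo replicates 1 and 3, WT mTEChi replicates 2 and 3). Cd80, a ligand of CD28 and CTLA-4, was at 74.2, 67.0 and 73.5 CPM in mTEChi and at 8.07, 7.38 and 7.88 CPM in mTEClo (3.20, SE 0.17, adjusted p = 1.61e-11). Cd86, the other ligand of both receptors and named after its values were seen, was at 47.7 ± 5.90 and 1.52 ± 0.613 CPM. Icosl, the ligand of ICOS, went from 59.1 ± 9.84 CPM in mTEClo to 454 ± 45.9 CPM in mTEChi (2.94, SE 0.13). Cd40 and Tnfsf9, a receptor and a ligand of the TNF families that act between medullary and T cells, had log2 fold changes of 2.66 (SE 0.16) and 3.52 (SE 0.20). Not every ligand differed. Cd274, which encodes PD-L1, was at 157 ± 17.7 CPM in mTEChi and 137 ± 13.6 CPM in mTEClo and was not called (0.19, SE 0.14, adjusted p = 0.242). It was chosen after its values were seen.

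The list of AIRE, FEZF2, proteins that work with AIRE and some other transcription factors did not move as a block. Of its 25 members 7 were higher and 13 lower (median -0.42). Higher were Aire, Fezf2, a second regulator of organ antigens (569 ± 25.4 and 183 ± 9.13 CPM, named after its values were seen), and Sirt1, a deacetylase that acts on AIRE (314 ± 40.3 and 40.2 ± 3.04 CPM; log2 fold change 2.97, SE 0.14, adjusted p = 3.45e-12). Irf8, a transcription factor best known from myeloid and B cells, rose as well (440 ± 27.7 and 117 ± 6.46 CPM). Lower members included proteins of DNA repair and transcription found in most cells. Xrcc5, the Ku80 subunit, was at 26.9 ± 2.78 and 74.0 ± 6.30 CPM (-1.45, SE 0.13), and Deaf1 at 20.4 ± 2.83 and 45.5 ± 4.03 CPM.

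In the pathway from RANK and lymphotoxin receptors to NF-kB, which drives medullary maturation, 14 of 26 members were higher and 10 lower (median 0.41). Without WT mTEChi replicate 3 the lower members were 6. The RANK gene Tnfrsf11a was at 384, 451 and 382 CPM in mTEChi and at 193, 163 and 181 CPM in mTEClo (1.18, SE 0.11, adjusted p = 3.18e-08). Tnfrsf11b, the decoy receptor osteoprotegerin that binds the same ligand, differed more (362 ± 10.2 and 51.6 ± 16.4 CPM; 2.81, SE 0.22). Birc3, a ubiquitin ligase in this pathway, had a log2 fold change of 1.16 (SE 0.09). Lower members included the inflammatory regulators Nfkbiz (-2.15, SE 0.18) and Tnfaip3 and the adaptor Traf5 (7.63 ± 1.58 and 38.5 ± 2.88 CPM).

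Chemokines and their decoy receptors split as well, with 14 of 22 members higher and 8 lower and none uncalled (median 1.06). Ccl25, which draws thymocyte progenitors, was at 1104, 1036 and 1034 CPM in mTEChi and at 95.8, 112 and 116 CPM in mTEClo (3.29, SE 0.21). The CCR4 ligand Ccl22 went from 6.25 ± 1.88 CPM in mTEClo to 179 ± 30.4 CPM in mTEChi (4.86, SE 0.28). On the lower side, beside Ccl21a, were the eosinophil chemokine Ccl11 (59.8 ± 19.96 CPM in mTEChi and 862 ± 157 CPM in mTEClo), Cxcl12, the ligand of CXCR4 (16.4 ± 1.21 and 129 ± 11.1 CPM), and the scavenger of CCL21 and CCL25, Ackr4 (5.26 ± 1.52 and 28.0 ± 5.85 CPM). The summed level of the list overlapped between the fractions, at 3934 to 4162 CPM in mTEChi and 3827 to 4223 CPM in mTEClo.

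Transcripts typical of single organs were mostly higher in mTEChi. Across 11 organ lists, 149 of 180 tested antigens were higher in mTEChi and 8 lower, with 23 not called and 24 further members too low to test. Their median log2 fold change was 4.04. With the 12 members at 0 counts in a fraction set to their lower bound, that is with 3 counts over the group, the median was 3.81. Each organ leaned the same way: stomach and intestine 21 of 23 higher, endocrine glands 17 of 21, salivary and lacrimal glands 17 of 18, liver 17 of 20, pancreas 16 of 21, kidney and lung 12 of 13, eye 12 of 16, testis and ovary 11 of 14, brain and myelin 10 of 16, and mammary gland and heart 8 of 8 and 8 of 10. At equal depth the mammary gland count was 5 and that of testis and ovary 7. A member that passed the filter only through mTEChi had to differ, so these shares describe the tested members and not all members.

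The milk protein gene Csn2 reached 827, 995 and 967 CPM in mTEChi against 45.1, 42.7 and 57.9 CPM in mTEClo (4.26, SE 0.27, adjusted p = 8.55e-11). Ins2, which encodes insulin, was at 25.8, 24.7 and 27.1 CPM against 0.102, 0.648 and 0.446 CPM (6.06, SE 0.61, adjusted p = 6.06e-08). Pomc, from which several pituitary hormones are cut, was at 143, 138 and 151 CPM against 1.53, 5.18 and 6.40 CPM (5.10, SE 0.41, adjusted p = 2.24e-09). The fractions are far apart in all 3 genes, and the spread within mTEChi is small. The neuropeptide gene Nts of the gut (141 ± 19.8 and 2.86 ± 0.616 CPM), the hormone gene Calca of thyroid C cells (268 ± 26.3 and 11.9 ± 5.47 CPM), the lens crystallin gene Cryaa (49.9 ± 3.59 and 1.03 ± 0.399 CPM) and the glutamate decarboxylase gene Gad1 of neurons (61.5 ± 4.34 and 3.75 ± 1.89 CPM) show the range of organs. In the germ line set, Stra8, which acts at the entry into meiosis, was at 23.0 ± 2.40 and 0.548 ± 0.180 CPM. Antigens that were lower in mTEChi include the parathyroid hormone gene Pth (14.4 ± 3.84 and 141 ± 74.0 CPM; -3.34, SE 0.83, adjusted p = 0.00183), the neuronal gene Nrgn (5.32 ± 1.51 and 25.8 ± 7.20 CPM) and the acute-phase gene Crp (64.8 ± 5.26 and 152 ± 8.05 CPM). In mTEClo of pool 3 Pth was at 55.5 CPM, against 187 and 180 CPM in pools 1 and 2.

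**Figure D2:**
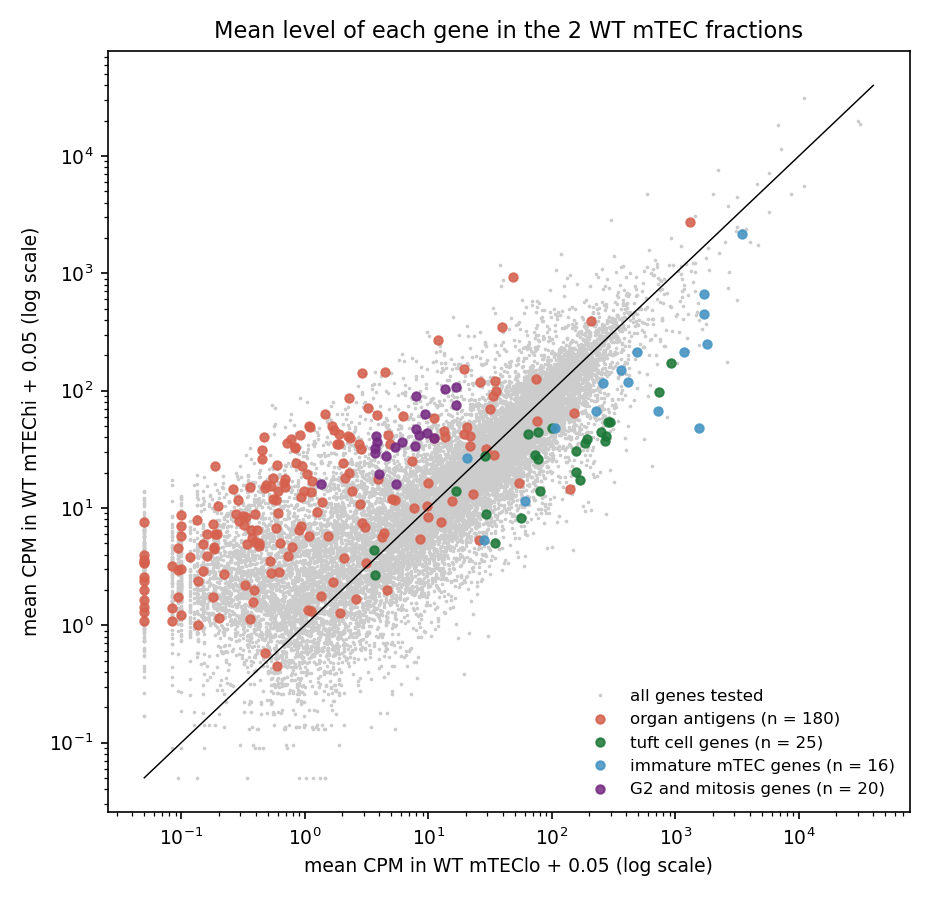
Mean CPM plus 0.05 in mTEClo (horizontal) and mTEChi (vertical), both on log axes, for all 19364 genes tested in grey, with 180 organ antigens, 25 tuft cell genes, 16 immature mTEC genes and 20 genes of G2 and mitosis in colour and a line of equal level. Most organ antigens lie above the line at the left, the G2 and mitosis genes lie above it, and most tuft cell and immature mTEC genes lie below it.

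The 10 most raised genes of at least 5 CPM had 0 counts in all 3 mTEClo libraries, so their folds are lower bounds against 3 counts over the group. Slamf1, an immune cell receptor, had 267 counts in mTEChi (at least 111-fold higher), and the mast cell chymase gene Cma1 had 270 (at least 112-fold higher). Others come from unrelated organs, among them Mcpt4 of mast cells (at least 93.3-fold), the serine dehydratase gene Sds (at least 81.2-fold), Amtn of tooth enamel (at least 92.0-fold) and the cystatin gene Cst8 of the epididymis (at least 70.4-fold). In all, 382 genes called higher had 0 counts in mTEClo, against 6 genes called lower with 0 counts in mTEChi. The most lowered genes kept some counts in mTEChi. Gas1, a membrane protein that acts in hedgehog signalling, was at 22.7 ± 3.42 and 645 ± 84.7 CPM (-4.82, SE 0.18, adjusted p = 1.64e-13), and the activin antagonist Fst at 9.59 ± 0.392 and 207 ± 7.35 CPM (-4.42, SE 0.14, adjusted p = 4.07e-14).

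Promoters of the called genes were compared, since the contrast did not use sequence. RefSeq promoters on GRCm38.p6, from 250 bases before to 50 after the first start listed, matched 14424 of the 19364 genes. The letters TATAAA, searched on both strands, were in 9.76% of these promoters, in 14.1% of those of higher genes and in 7.14% of those of lower genes. They were in 32.6% of the promoters of all 141 organ antigens tested that had one, and in 33.3% of the 117 among these that were called higher. Since the 117 make up most of the 141, these shares could hardly differ and do not tell whether the motif goes with the call. The ratio of observed to expected CpG, which is high in CpG islands, had a median of 0.69 over all genes, 0.47 over higher genes, 0.75 over lower genes 0.20 over the organ antigens tested and 0.21 over those called higher. In the set called higher and below 1 CPM in both mTEClo and cTEC the median was 0.25. Searched on the gene strand in the 50 bases before the start, TATAAA was in 2.97% of all promoters, 5.78% of those of higher genes, 1.48% of those of lower genes, 22.0% of those of the organ antigens tested and 23.1% of those of the antigens called higher. These shares are descriptions, and a match is not a site of binding.

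**Figure D3:**
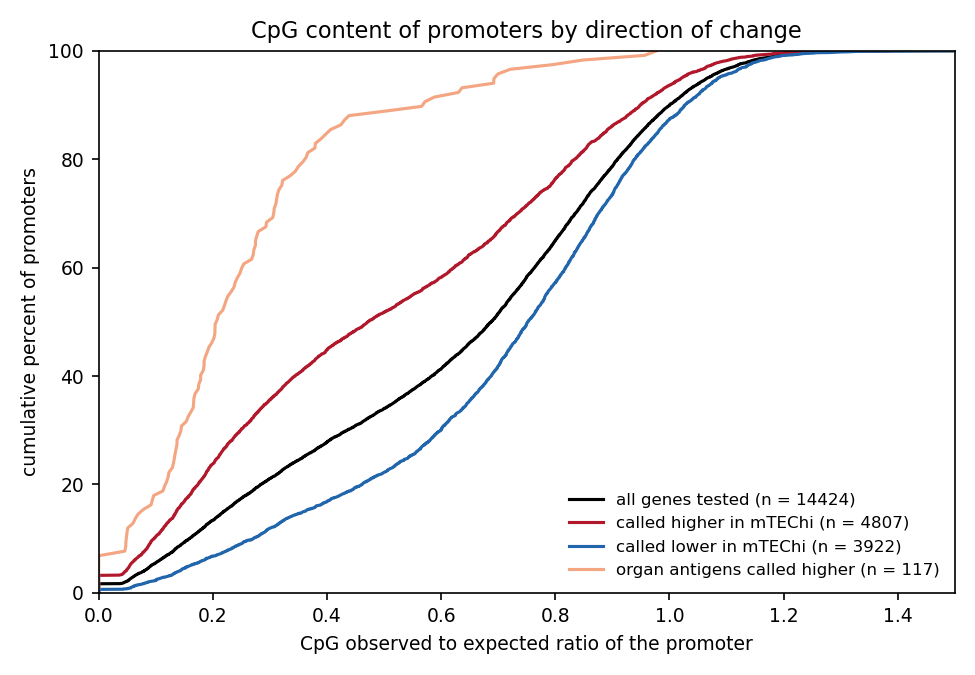
Cumulative percent of promoters (vertical) by their CpG observed to expected ratio (horizontal) for all 14424 genes with a promoter, 4807 called higher, 3922 called lower and 117 organ antigens called higher in mTEChi. The curve of higher genes lies to the left of all genes (median 0.47 against 0.69), the curve of lower genes to the right (0.75), and that of the organ antigens farthest left (0.21).

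The promoters of Pomc and of Reg3g, an antimicrobial lectin of the gut, are shown because they are 2 of the 3 most abundant called organ antigens that hold the motif. Reg3g was high in both fractions, at 3390, 2307 and 2438 CPM in mTEChi and 1425, 1157 and 1389 CPM in mTEClo (1.03, SE 0.26, adjusted p = 0.00226). The windows are chr12:3954695-3954994 on the plus strand for Pomc and chr6:78468825-78469124 on the minus strand for Reg3g, printed 5′ to 3′ along the gene with TATAAA, or TTTATA where the match is on the other strand, in capitals.
Pomc: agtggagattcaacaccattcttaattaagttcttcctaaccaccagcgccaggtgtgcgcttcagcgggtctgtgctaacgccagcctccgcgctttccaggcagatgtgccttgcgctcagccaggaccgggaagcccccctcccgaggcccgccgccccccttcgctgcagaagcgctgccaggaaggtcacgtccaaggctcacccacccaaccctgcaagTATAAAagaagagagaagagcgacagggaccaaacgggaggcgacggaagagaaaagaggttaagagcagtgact
Reg3g: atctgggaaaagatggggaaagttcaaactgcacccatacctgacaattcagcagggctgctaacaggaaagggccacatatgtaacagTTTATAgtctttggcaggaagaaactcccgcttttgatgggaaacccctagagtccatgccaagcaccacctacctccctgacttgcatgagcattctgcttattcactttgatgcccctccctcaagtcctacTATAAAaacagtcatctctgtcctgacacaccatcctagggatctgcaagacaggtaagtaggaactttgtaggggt
The match on the gene strand begins 25 bases before the start of Pomc and 27 before that of Reg3g, which holds another on the opposite strand 161 bases before it.

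Genes of immature medullary cells lay on the mTEClo side: 15 of 16 were lower in mTEChi and none was higher (median -1.77). Lifr, the receptor of leukemia inhibitory factor, was at 59.3, 81.6 and 61.6 CPM in mTEChi and at 753, 705 and 705 CPM in mTEClo (-3.41, SE 0.16, adjusted p = 2.14e-12). The basal keratin gene Krt14 was at 447 ± 34.3 and 1717 ± 113 CPM (-1.94, SE 0.11), and its partner Krt5, named after its values were seen, at 213 ± 38.5 and 1175 ± 68.0 CPM. Apoe went from 1795 ± 208 CPM in mTEClo to 249 ± 42.0 CPM in mTEChi. Transcription factors of thymic epithelial identity were mostly lower too, in 10 of 15 members with 2 higher (median -0.90); the higher members were 1 without WT mTEClo replicate 1 or WT mTEChi replicate 3 and at equal depth. Trp63, which maintains stratified epithelia, was at 118 ± 7.72 and 410 ± 14.2 CPM (-1.80, SE 0.12), whereas Foxn1, the factor that specifies the thymic epithelium, was higher in mTEChi (112 ± 16.0 and 73.0 ± 14.7 CPM; 0.61, SE 0.17, adjusted p = 0.00501).

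Signalling and matrix genes were mostly lower as well. Summed markers of mural cells (860 to 1101 CPM in mTEClo and 279 to 308 CPM in mTEChi) and fibroblasts (275 to 374 and 137 to 160 CPM) moved in the same direction. Their members were split, with 2 higher and 2 lower of 8 mural markers and 4 higher and 3 lower of 10 fibroblast markers. These counts lay near the shares of all genes tested (32.6% higher and 26.7% lower) and are no result about the markers. The part of such cells in the signalling and matrix lists was not tested. In the Wnt, BMP and FGF pathways 15 of 23 members were lower and 2 higher (median -1.24), with 4 higher by DESeq2. Fgfr2, the receptor of FGF7 and FGF10, was at 18.8, 19.1 and 17.4 CPM in mTEChi and at 218, 230 and 204 CPM in mTEClo (-3.56, SE 0.12, adjusted p = 6.15e-14). The BMP target Id1 (20.3 ± 2.29 and 243 ± 21.7 CPM) and the Wnt receptor Fzd2 (7.44 ± 1.40 and 86.4 ± 11.2 CPM) were lower by a similar amount. Of 15 Notch pathway genes 10 were lower and 4 higher (median -1.30). The ligand Jag2 (7.60 ± 2.06 and 62.9 ± 7.55 CPM), the target Hey1 (-2.41, SE 0.19) and the receptor Notch2 (-1.51, SE 0.12) were lower, and the ligand Dll4 (19.98 ± 2.53 and 5.03 ± 1.51 CPM) and the nuclear effector Rbpj (1.10, SE 0.15) were higher. Of 21 basement membrane and integrin genes, 15 were lower and 3 higher (median -1.18). The laminin chains Lamb1 (22.8 ± 3.65 and 146 ± 19.0 CPM) and Lamb3 (18.5 ± 2.42 and 113 ± 9.70 CPM) were lower, while the linker Nid1 was higher (24.6 ± 3.01 and 1.31 ± 0.458 CPM; 4.24, SE 0.45). Epithelial junction genes split, with 5 of 19 higher (26.3%, against 32.6% of all genes tested) and 8 lower (42.1%, against 26.7%). The higher count is near the share of all genes and is no result about the list. Cldn7 of tight junctions was higher (1.44, SE 0.19) and Dsp of desmosomes lower (-1.24, SE 0.13).

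All 20 genes of G2 and mitosis were higher in mTEChi (median 2.65). Ccnb1, which encodes the mitotic cyclin B1, was at 39.3, 41.5 and 42.3 CPM in mTEChi and at 3.58, 2.59 and 4.91 CPM in mTEClo (3.49, SE 0.25, adjusted p = 4.69e-10). Ube2c of the anaphase-promoting complex was at 90.2 ± 11.6 and 7.90 ± 1.16 CPM. Of 20 DNA replication genes 12 were higher and none lower, by less (median 0.64), led by the ribonucleotide reductase subunit Rrm2 (47.9 ± 6.76 and 6.91 ± 1.91 CPM). Apoptosis genes were higher in 9 of 15 members and lower in 2, and the survival genes of the BCL2 family exchanged places. Bcl2l1, which encodes BCL-xL, was at 194, 178 and 164 CPM in mTEChi and at 53.6, 40.4 and 44.6 CPM in mTEClo (1.95, SE 0.13), and Bcl2 at 26.2 ± 1.17 and 101 ± 18.7 CPM (-1.95, SE 0.14). Among 86 genes of oxidative phosphorylation 22 were higher (25.6%, against 32.6% of all genes tested) and 1 lower (median 0.42). The higher members were 37 with RLE scaling, 38 with DESeq2, 42 with the pool fitted as a replicate block and 46 with only the compared groups. In those fits their share lay above that of all genes, so the place of this list depends on the processing.

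**Figure D4:**
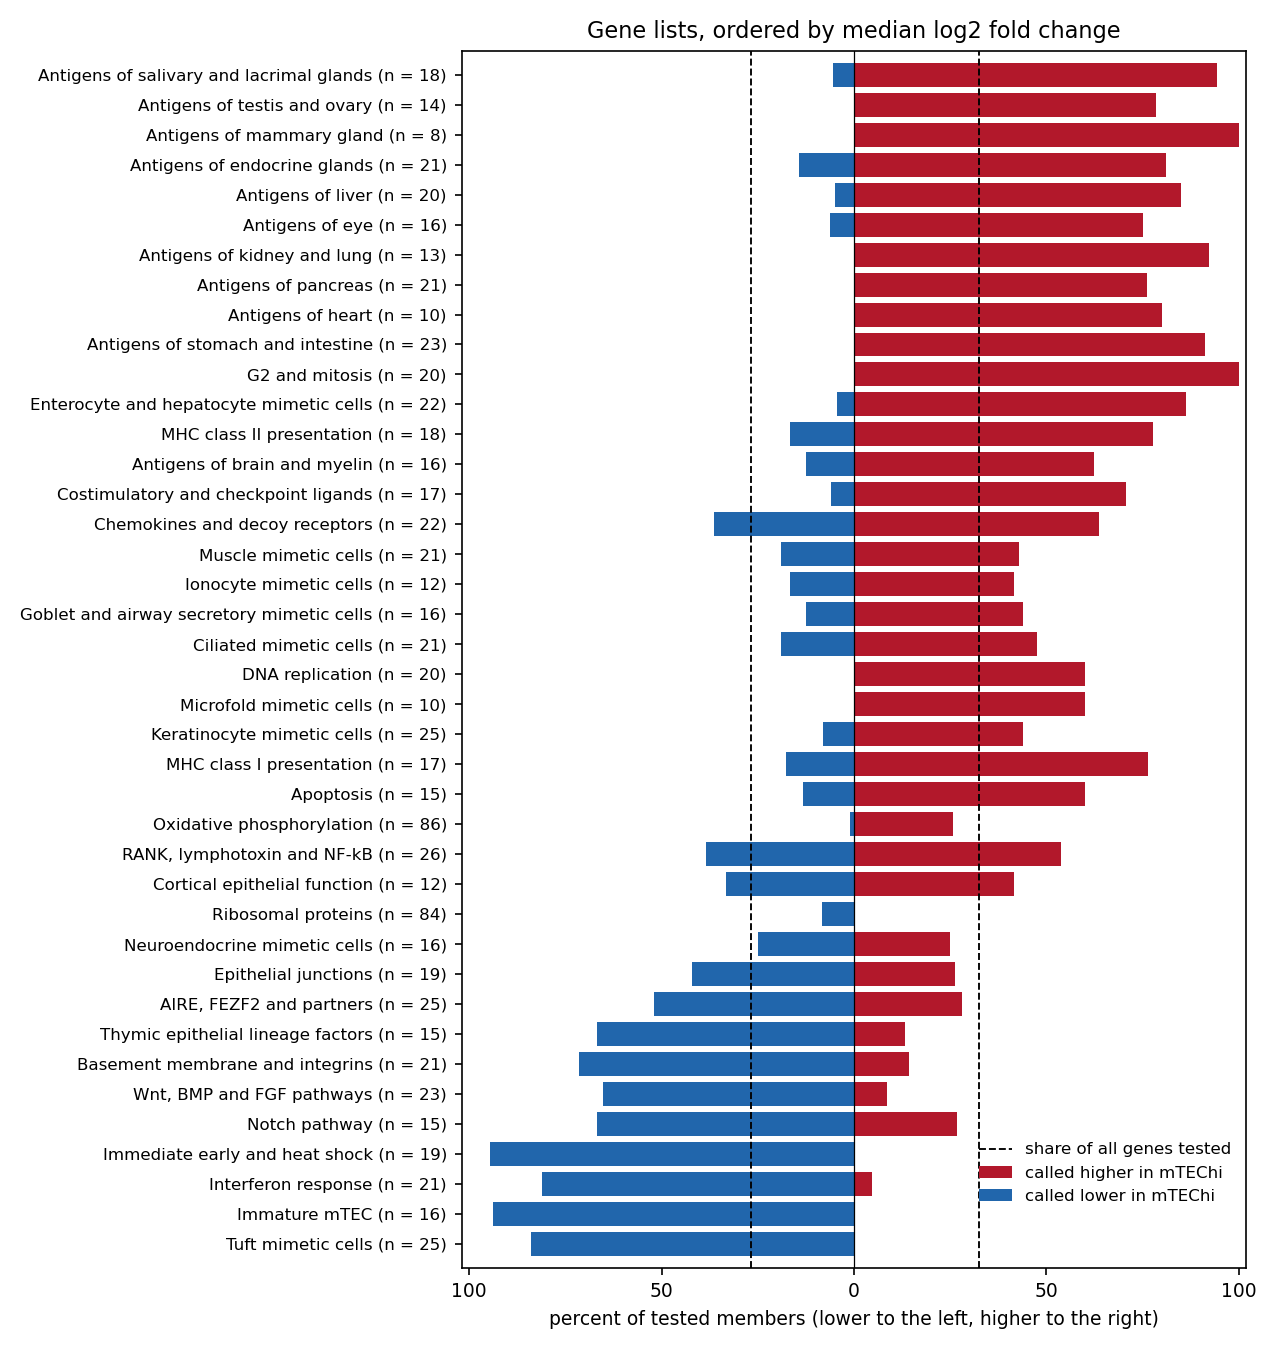
Percent of tested members of each gene list called higher (red, to the right) or lower (blue, to the left) in mTEChi, with lists ordered by their median log2 fold change and dashed lines at the shares of all genes tested, 32.6% and 26.7%. Of the lists drawn, 10 of the 11 organ antigen lists and the G2 and mitosis list stand at the top, with brain and myelin antigens lower down, and tuft, immature mTEC, interferon and immediate early lists at the bottom.

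Tuft cells are chemosensory epithelial cells with mimics in the medulla. Of their 25 genes, 21 were lower in mTEChi and none was higher (median -2.39). Gnat3, the G protein subunit gustducin of taste signalling, was at 110, 92.3 and 89.9 CPM in mTEChi and at 971, 595 and 655 CPM in mTEClo (-2.93, SE 0.16, adjusted p = 2.01e-11). Alox5ap of leukotriene synthesis was at 17.4 ± 3.80 and 168 ± 12.2 CPM and its taste pathway companion Gnb3 at 171 ± 22.9 and 912 ± 208 CPM. In both Gnat3 and Gnb3 the mTEClo library of pool 1 was the highest. Other mimetic programmes differed in direction. Enterocyte and hepatocyte genes were higher in 19 of 22 members and lower in 1 (median 2.15), with the lipoprotein genes Apoa4 at 239 ± 36.0 and 29.3 ± 6.58 CPM and Apoc3 at 84.5 ± 15.2 and 7.74 ± 5.13 CPM. Here too a member that passed the filter only through mTEChi had to differ, so this count describes the tested members. Microfold cell genes were higher in 6 of 10 and lower in none (median 0.61), and ciliated cell genes higher in 10 of 21 and lower in 4 (median 0.68). The ciliated share of 47.6% higher is not far from the 32.6% of all genes tested, so this count is no result about the list. In the ciliated list the regulators Mcidas (24.6 ± 2.16 and 1.52 ± 0.924 CPM) and Gmnc (14.8 ± 2.29 and 0.167 ± 0.152 CPM) were higher, whereas Rfx3 was lower (13.1 ± 0.990 and 28.5 ± 3.66 CPM).

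In the remaining mimetic lists the shares of higher members lay near the 32.6% of all genes tested, so these counts are no result about the lists. The neuroendocrine list held 4 higher, 4 lower and 8 uncalled members (median 0.03). Its transcription factor Insm1 was at 158, 152 and 133 CPM in mTEChi and at 21.3, 18.8 and 20.5 CPM in mTEClo (2.86, SE 0.17, adjusted p = 6.30e-11), while the granule protein gene Chga was lower (64.2 ± 3.33 and 178 ± 40.6 CPM; -1.47, SE 0.42, adjusted p = 0.00531). Of 21 muscle genes 9 were higher and 4 lower, and the lower ones were 2 without WT mTEChi replicate 2 or 3 or WT mTEClo replicate 2. The calcium channel gene Cacna1s was higher (36.7 ± 1.68 and 3.85 ± 1.17 CPM) and the myosin light chain gene Myl1 lower (3.59 ± 0.740 and 13.3 ± 1.01 CPM). Keratinocyte genes were higher in 11 of 25 and lower in 2, goblet and airway secretory genes higher in 7 of 16 and lower in 2, and ionocyte genes higher in 5 of 12 and lower in 2. With the replicate block the lower members were 1 for keratinocytes and 4 for goblet and airway cells. The higher keratinocyte members were 7 without WT mTEChi replicate 1 or WT mTEClo replicate 2, and the higher ionocyte members 3 without WT mTEChi replicate 1 or WT mTEClo replicate 3. The lower members of the keratinocyte and goblet lists were 0 or 1 without any 1 of several libraries, among them WT mTEClo replicates 1 and 2 and WT mTEChi replicate 3. Among the mucins, Muc1 was higher (258 ± 9.29 and 39.9 ± 5.97 CPM) and the airway mucin Muc5b lower (5.92 ± 1.15 and 29.3 ± 12.6 CPM).

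Of 21 interferon response genes, 17 were lower in mTEChi and 1 was higher (median -1.43), or 2 without WT mTEClo replicate 1. Stat2 and Irf9, transcription factors of the interferon response, were at 48.6 ± 5.72 and 258 ± 23.1 CPM and at 70.1 ± 4.49 and 283 ± 33.2 CPM. Ifit3, an antiviral effector, was at 35.2, 45.7 and 37.0 CPM in mTEChi and at 305, 302 and 278 CPM in mTEClo (-2.90, SE 0.15, adjusted p = 1.13e-11). Usp18, which restrains interferon receptor signalling, was the exception, at 637 ± 34.2 and 412 ± 20.7 CPM (0.63, SE 0.11, adjusted p = 8.55e-05). Immediate early genes and mitochondrial shares, given above, moved in the same direction as this list. The core of the interferon-stimulated response element, 2 copies of TTTC with any 2 bases between them, was chosen after the list was seen. It was found on either strand in 10 of the 16 list members with a promoter, whatever their call (62.5%), in 9 of the 13 called lower (69.2%), in 3.16% of promoters of all lower genes and in 3.12% of all promoters. The promoters of Stat2 (chr10:128270248-128270547, plus strand) and Ifit3 (chr19:34583279-34583578, plus strand, at the first start listed) are shown with this motif in capitals.
Stat2: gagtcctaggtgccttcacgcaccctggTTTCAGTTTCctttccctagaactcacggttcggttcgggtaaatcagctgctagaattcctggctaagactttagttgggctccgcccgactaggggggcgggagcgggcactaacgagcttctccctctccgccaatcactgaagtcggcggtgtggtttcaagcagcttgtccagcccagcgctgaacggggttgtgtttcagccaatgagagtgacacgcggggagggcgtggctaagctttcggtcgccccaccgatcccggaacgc
Ifit3: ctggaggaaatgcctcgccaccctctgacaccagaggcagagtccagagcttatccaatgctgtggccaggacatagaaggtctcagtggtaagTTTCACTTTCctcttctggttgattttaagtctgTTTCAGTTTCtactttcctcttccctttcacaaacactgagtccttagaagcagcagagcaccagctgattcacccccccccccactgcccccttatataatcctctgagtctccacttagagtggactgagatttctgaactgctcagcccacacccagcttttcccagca
The match begins 222 bases before the start in Stat2, and the 2 matches in Ifit3 begin 156 and 122 bases before it.

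Markers of macrophages and dendritic cells, of B cells and of thymocytes were mostly higher in mTEChi. Macrophage and dendritic cell markers were higher in mTEChi in 15 of 16 tested members and lower in 1, with a summed level of 1676 to 1737 CPM in mTEChi and 236 to 254 CPM in mTEClo, most of it from Lyz2, which encodes lysozyme (1447 ± 33.4 and 119 ± 10.3 CPM). The defining receptor gene Csf1r was at 16.7 ± 1.42 and 1.13 ± 0.703 CPM, Siglech, chosen after its values were seen, had 0 counts in mTEClo, and Itgax and Clec9a were too low to test. B cell markers were higher in 7 of 8 (summed 111 to 118 and 36.4 to 51.0 CPM), with Blk at 21.2 ± 0.892 and 0.903 ± 0.288 CPM. In both lists a member that passed the filter only through mTEChi had to differ, so these counts describe the tested members only. Thymocyte markers were higher in 12 of 19 and lower in 2, or 1 without WT mTEChi replicate 1 or 2 or WT mTEClo replicate 1 (summed 157 to 196 and 87.5 to 101 CPM). Macrophages, dendritic cells and B cells carry class II and some of the same costimulatory genes; the part of such cells in the class II, costimulatory and antigen results was not tested. Mural cell markers held 2 higher and 2 lower of 8, and their sum was lower in mTEChi (279 to 308 and 860 to 1101 CPM), through Tagln (31.0 ± 1.21 and 394 ± 50.6 CPM) and Acta2 (74.2 ± 5.07 and 432 ± 71.6 CPM). Fibroblast markers held 4 higher and 3 lower of 10, with 2 higher without WT mTEClo replicate 1 (summed 137 to 160 and 275 to 374 CPM), endothelial markers 3 higher of 7 (95.2 to 106 and 48.5 to 74.9 CPM), erythroid markers 1 higher of 4, and cortical markers 2 higher and 1 lower of 6. From mural to cortical markers the shares called higher were 25% to 42.9%, near the 32.6% of all genes tested. These counts are no result about the lists.

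**Figure D5:**
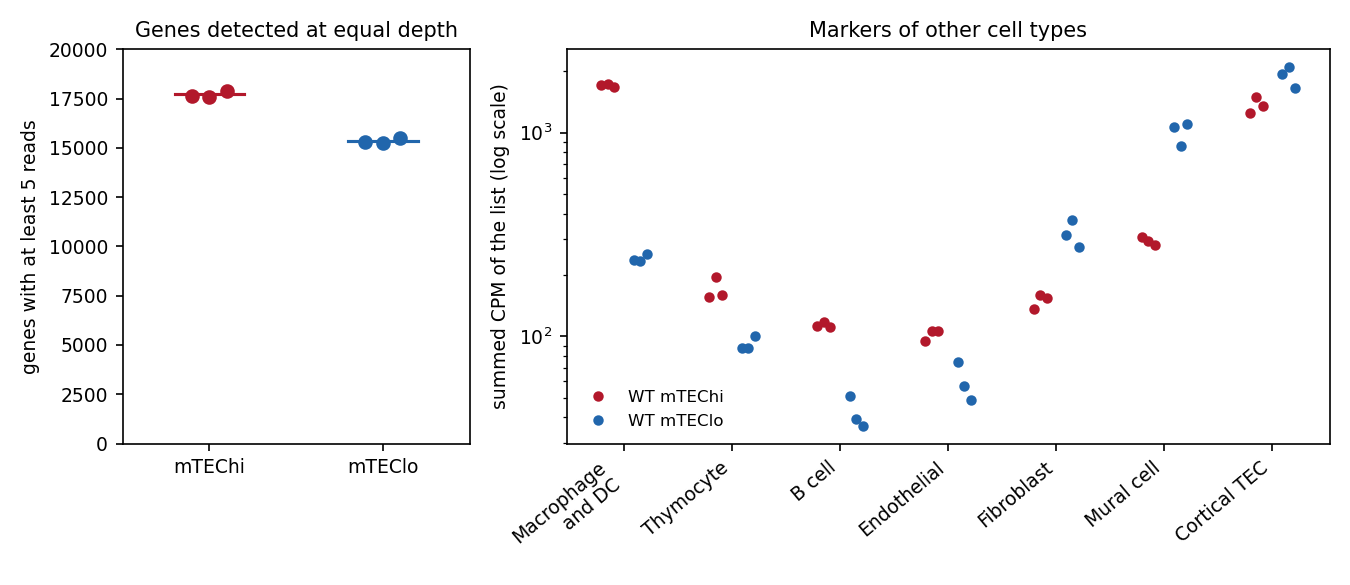
Left, genes with at least 5 reads in each library after thinning to 3554089 counts, with a line at each mean (17710 in mTEChi, 15338 in mTEClo). Right, summed CPM (log axis) of 7 marker lists in each library: the macrophage and dendritic cell list lies at 1676 to 1737 CPM in mTEChi and 236 to 254 CPM in mTEClo, and the mural list the other way round.

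Whether the difference between the fractions was the same in the mice labelled as Kat7 KO was tested as an interaction, WT minus KO, in the same fit. Of the 19364 genes 2613 (13.5%) had a difference between fractions that itself differed between genotypes: it was more positive in WT for 1312 genes (6.78%) and more negative for 1301 (6.72%). For Aire the interaction was not called (0.88, SE 0.46, adjusted p = 0.228). Of the 180 organ antigens, 24 had a more positive difference in WT and 2 a more negative one. The immature mTEC list had 10 of 16 members with a more negative difference in WT and 1 with a more positive one, and the interferon list 11 of 21 more negative and none more positive. In the tuft list 7 of 25 were more negative, in the neuroendocrine list 7 of 16 more positive, and in the G2 and mitosis list 1 of 20 was called. WT and KO mice were separate pools, and batch and genotype cannot be told apart.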

How the data were processed

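Bulk RNA-seq was measured in 18 libraries of sorted thymic epithelial cells. Per the labels' protocols, cDNA was amplified (SMART-Seq v4), tagmented (Nextera XT) and sequenced as 75 base paired ends. These kits do not mark strand, so antisense partners and near-identical copies (Ccl21, Tas2r, Dcpp, Reg, Hspa1 and immunoglobulin genes) are uncertain. Amplified reads without molecular identifiers are not independent molecules. The deposited values are raw counts per gene, made with featureCounts on mm10 per the submitters' processing notes. The aligner is not given in the sources used here. The 18 single files equal the table.

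Genes passing filterByExpr (minimum count 10) were fitted in R 4.3.3 with edgeR 4.0.16 (TMM, 6 group means over 18 libraries, 12 residual degrees of freedom, glmQLFTest, Benjamini-Hochberg over 19364 genes). SEs follow from the F statistic. Fits were tested on simulated data. Alternatives used RLE, DESeq2 1.42.0, no filter, fewer samples, thinning and the replicate block. Libraries of the same pool come from the same mice, per the labels, and their deviations from group means correlated at 0.05 to 0.10 against -0.10 to 0.02 for other pairs. The members and lists were chosen with earlier results of these data known. The named genes were the largest changes, the largest CPM differences and up to 4 members per list and direction by adjusted p. P-values measure the spread between libraries within a group, with all 18 libraries of the 6 groups used to estimate it. The main fit does not use the pairing by pool.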

Additional observations from a re-analysis of the deposited data

Results flagged for a closer look

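The difference between fractions differed between WT and KO mice, by the interaction test of the edgeR fit, in 10 genes, the 5 largest in each direction among called genes with a mean of at least 5 CPM in 1 or more of the 4 groups, predicted genes left out. The values are the WT minus KO difference of the log2 fold changes, followed by mean CPM of 3 libraries. Each difference rests on all 4 groups, also where the levels of only some groups are given. Accsl (7.75, adjusted p = 0.00681) was at 9.09 CPM in WT mTEChi and 0.795 CPM in KO mTEChi. Dcpp3 (9.08, adjusted p = 3.82e-07), a secreted protein gene of salivary glands, was at 30.9 and 0.396 CPM in WT mTEChi and mTEClo but at 2.93 and 19.4 CPM in KO. The immunoglobulin genes Igkv8-19 (9.85, adjusted p = 0.0280) and Igha (8.07, adjusted p = 0.0200) were at 6.51 ± 11.2 and 19.2 ± 30.7 CPM in KO mTEClo. Without KO mTEClo replicate 6 the values were 2.51 (adjusted p = 0.640) and 4.39 (adjusted p = 0.0946), and the WT contrast alone was called for neither gene (adjusted p = 0.129 and 0.126). With the replicate block it was called for both (4.61, adjusted p = 0.00957, and 3.69, adjusted p = 0.0346), and for Igha also with DESeq2 (adjusted p = 0.0204) and with only the compared groups (adjusted p = 7.26e-05). The call of Igkv8-19 was lost in 8 settings that leave out 1 library and that of Igha in 3. Rspo3 (7.63, adjusted p = 0.0414), a Wnt agonist gene, was at 6.21 CPM in WT mTEChi, and its call was lost with the replicate block (adjusted p = 0.0760), with equal depth and without any 1 of 10 of the 12 libraries.

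On the other side, Itga8 (-4.57, adjusted p = 6.68e-05), an integrin gene, was at 14.9 and 2.77 CPM in WT mTEChi and mTEClo and at 3.74 and 0.0188 CPM in KO. Gldn (-4.25, adjusted p = 0.0259) was at 5.00 and 0.674 CPM in WT and had 0 counts in KO mTEClo. Nkain4 (-4.13, adjusted p = 3.10e-05) was at 14.3 and 45.3 CPM in WT and at 3.31 and 0.563 CPM in KO. Mical1 (-4.01, adjusted p = 0.00126) was at 4.15 and 6.18 CPM in WT and at 0.922 and 0.0791 CPM in KO. The bitter taste receptor gene Tas2r130 (-3.78, adjusted p = 0.0312) was at 0.0792 and 5.31 CPM in WT and at 0.339 and 1.23 CPM in KO. The calls of Gldn and Tas2r130 were each lost in 7 alternatives, in 6 of which 1 library was left out, and that of Mical1 was lost at equal depth (-2.43, adjusted p = 0.153).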

How the results depend on the processing

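No call of the contrast changed direction in any alternative. Higher and lower genes numbered 6814 and 4589 with RLE scaling, 6640 and 5595 without a filter, 6732 and 4573 with DESeq2, 6046 and 5601 with only the compared groups and 5117 and 4559 at equal depth. RLE moved the median log2 fold change to 0.17. Leaving out 1 library gave 5903 to 6123 higher and 4424 to 4931 lower. Fitting pool as a replicate block gave 6467 and 5275 (6147 and 5716 with only the compared groups), and 11269 of 11478 calls remained. Over all libraries the block changed by over 1.5 times the member counts given beside their lists, those of heart antigens (1 lower) and those of ribosomal proteins (3 higher and 13 lower). Among named genes it changed the calls of Tgm1, Igkv8-19, Igha and the interaction of Rspo3. The interaction gave 1309 and 1308 with RLE scaling, 979 and 1229 at equal depth, 1568 and 1546 with the replicate block, and 910 to 1275 and 950 to 1284 with 1 library left out. The difference in genes detected was 2824 with at least 1 read and 1831 with at least 10. The share of promoters with TATAAA near the start on the gene strand was 2.97% of all, 5.78% of higher genes, 1.48% of lower genes and 23.1% of organ antigens called higher. With 3 libraries a fraction, genes near the threshold (such as Pvr, Tap1 and Foxi1) lost their call in some alternatives. Depth limits genes below about 1 CPM, where a library holds only a few reads.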

Other observations

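Some gene families and runs of chromosomal neighbours moved mostly in 1 direction, and some of them hold members of the lists above. Other families split, such as the Hox genes with 11 higher and 8 lower of 24. The interferon-related Ifi, Ifit, Oas and Gbp genes had 21 higher and 25 lower of 54. The families and runs given here were chosen after their values were seen and are described by counts. Of all genes tested 32.6% were higher and 26.7% lower. A gene that passed the filter only through mTEChi had to differ, so the counts and medians describe the tested members of a family and not the whole family. All 31 tested Tas2r genes, which encode bitter taste receptors, were lower in mTEChi (median log2 fold change -3.60), and 24 adjacent tested genes on chromosome 6 (131629892 to 133055793 on GRCm38.p6), 23 of them Tas2r genes, were lower by 2.12 to 7.15. Of 46 odorant receptor genes (Olfr) with enough counts to be tested 29 were higher and 1 lower (median 3.87). Of 27 kallikrein genes (Klk), secreted proteases of skin and glands, 24 were higher and none lower, and 21 of them lie in 1 run on chromosome 7 (43781054 to 44220703). A run of 16 higher genes on chromosome 14 (55941451 to 56525032) holds mostly mast cell proteases and granzymes, and one of 14 on chromosome 5 (87554650 to 88527897) holds the caseins and the enamel genes Amtn, Ambn and Enam. With a run defined as at least 6 adjacent protein-coding genes tested that were called with a fold of 2 or more in 1 direction, there were 50 higher runs with 395 genes and 5 lower runs with 55 genes. Of the 17076 genes that could enter a run, 4324 were higher by this rule and 2001 lower, so higher runs had more genes to form from. How many runs these shares alone would give was not tested. Neighbours often belong to 1 family and can share reads.

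Zinc finger genes named Zfp went the other way by small amounts, with 159 of 371 lower and 36 higher (median -0.38). Of 47 keratin genes (Krt) 31 were higher and 6 lower (median 2.03), although Krt5 and Krt14 were among the lower ones. All 7 major urinary protein genes tested (Mup) were higher (median 6.97).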
